A study of Mus musculus with 9 samples.

Results

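The genes described here are 45 members of the TGF-beta, BMP and activin signaling pathways, chosen by name from the 21498 gene symbols measured in mouse colorectal tissue. They comprise 3 TGF-beta ligands, 11 BMP and GDF ligands, 3 activin or inhibin subunits, the protease Bmp1, 5 type I and 4 type II receptors, the co-receptor Tgfbr3, the pseudoreceptor Bambi, 8 Smads, 3 Id genes and 5 secreted antagonists, and all 45 were found in the files. RNA of 9 male ICR mice was sequenced, 3 in each group, from mice that entered the experiment at 5 weeks of age and were killed at the end of week 18. Control mice received neither AOM/DSS nor an antibody, and their samples are labelled normal colorectal mucosa. The other 6 mice received 10 mg/kg azoxymethane (AOM), which damages DNA in the colon epithelium, and 3 cycles of dextran sulfate sodium (DSS), which causes colitis, at 2% for 7 days in the first cycle and 1.5% for 5 days in the later ones. During the DSS cycles 3 of them were injected with 1.5 mg/kg of a negative control IgG antibody (AOM/DSS + IgG Ab) and 3 with 1.5 mg/kg of an antibody that neutralizes S100a9, a calcium-binding protein that neutrophils release (AOM/DSS + anti-S100a9 Ab). The labels call the tissue of both AOM/DSS groups colorectal adenocarcinoma, whereas the study's text calls the anti-S100a9 Ab tissue colon mucosa, and the tumor content of a sample is not given. ICR mice are outbred, so the animals of a group were not genetically identical.

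Ligands of this family bind pairs of type I and type II serine/threonine kinase receptors, which phosphorylate receptor Smads. Smad2 and Smad3 carry the TGF-beta and activin signal, Smad1, Smad5 and Smad9 carry the BMP signal, and either set enters the nucleus with the common partner Smad4. Secreted antagonists (Grem1, Nog, Chrd, Chrdl1, Fst) trap ligands outside the cell, Bambi takes the place of a type I receptor without signaling, and Smad6 and Smad7 block the receptors from inside. In the colon, BMP signals are strongest toward the luminal surface, where they restrain stem cells, while the muscle and fibroblasts beneath the crypt base secrete antagonists, and TGF-beta restrains epithelial growth.

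Start-site sequence is shown for 4 members that changed in the comparisons that follow: both activin beta subunits (Inhbb and Inhba) and Bmp8b, which were higher in the AOM/DSS + IgG Ab tissue, and Smad9, which was higher with anti-S100a9 Ab than with IgG Ab. Each is the RefSeq sequence of GRCm38.p6 from 250 bases before to 50 bases after the start of the gene, printed 5′ to 3′ on the gene's strand. Capitals mark matches, on either strand, to GGCGCC (a GC-rich element that BMP Smads can bind), CAGACA (which holds the short element of Smad3 and Smad4), CTTTGA (the core of the TCF/LEF element) or TGANTCA (the AP-1 element).
Inhbb, chr1:119422199-119422498, minus strand, no match to any of these motifs: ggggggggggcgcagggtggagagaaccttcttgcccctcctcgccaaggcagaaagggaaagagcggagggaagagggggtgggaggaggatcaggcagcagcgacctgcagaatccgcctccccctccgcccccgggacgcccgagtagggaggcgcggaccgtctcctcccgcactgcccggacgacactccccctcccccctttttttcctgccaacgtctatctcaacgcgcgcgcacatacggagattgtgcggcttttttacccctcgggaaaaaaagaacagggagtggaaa
Inhba, chr13:16011601-16011900, plus strand, 1 match to CTTTGA on the opposite strand: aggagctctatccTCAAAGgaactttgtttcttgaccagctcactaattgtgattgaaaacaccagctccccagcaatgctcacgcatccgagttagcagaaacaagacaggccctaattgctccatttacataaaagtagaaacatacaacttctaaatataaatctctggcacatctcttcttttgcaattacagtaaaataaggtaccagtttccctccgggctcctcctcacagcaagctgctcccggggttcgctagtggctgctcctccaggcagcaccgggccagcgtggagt
Bmp8b, chr4:123104911-123105210, plus strand, 1 match to CAGACA: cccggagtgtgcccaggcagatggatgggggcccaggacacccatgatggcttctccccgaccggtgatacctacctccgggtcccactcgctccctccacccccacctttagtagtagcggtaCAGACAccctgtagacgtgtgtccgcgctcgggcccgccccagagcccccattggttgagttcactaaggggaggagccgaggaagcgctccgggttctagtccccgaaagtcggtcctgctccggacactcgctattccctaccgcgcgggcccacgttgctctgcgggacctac
Smad9, chr3:54755332-54755631, plus strand, 1 match to GGCGCC: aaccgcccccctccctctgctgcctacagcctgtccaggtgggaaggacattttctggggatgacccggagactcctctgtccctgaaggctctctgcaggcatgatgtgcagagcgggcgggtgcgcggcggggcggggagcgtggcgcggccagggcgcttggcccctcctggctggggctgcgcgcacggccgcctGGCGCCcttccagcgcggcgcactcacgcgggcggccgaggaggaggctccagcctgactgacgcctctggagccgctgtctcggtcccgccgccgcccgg

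Such start-site sequences were at hand for 30 of the 45 members, with 36 windows in all. GGCGCC was found in 30.6% of the members' windows and in 11.9% of the 32851 windows of all genes. These are shares of windows, not of genes: windows of the same gene can overlap, and the same GGCGCC site of Smad5 was counted repeatedly. For CAGACA the shares were 16.7% and 21.0%, for CTTTGA 5.56% and 16.0%, and for TGANTCA 0% and 7.81%. The members' windows were richer in G and C, with a median of 64.7% against 52.7% over all windows. A match is a description of the letters in this window and does not show that a factor binds there.

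Expression values are FPKM as deposited, which divides fragments by transcript length and by depth, and the number of fragments behind a value is unknown. Groups were compared with limma on log2(FPKM + 0.1), fitted to all 9 samples and to the 15278 genes that reached 0.1 FPKM in 3 or more samples. A gene was called at a Benjamini-Hochberg adjusted p under 0.05 over all of these genes, and fold changes are log2 on this scale, where the pseudocount shrinks those of weakly expressed genes. The filter kept 44 of the 45 members, of which 43 reached 0.1 FPKM in every sample, and the exception, Inhba, reached it in 8 of 9. Gdf5, a ligand of cartilage and joints, was not tested, with 0.0163, 0.0197 and 0.0594 FPKM in the Control mice, 0.442, 0.0639 and 0.379 FPKM with IgG Ab and 0.0287, 0.0292 and 0.0159 FPKM with anti-S100a9 Ab. Samples are listed throughout in the order of replicates 1, 2 and 3. Each test was repeated in 9 leave-one-out fits, each without 1 sample, and calls that were lost there are named.

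The tissue itself differed between the groups, and in bulk RNA fewer cells of a type cannot be told apart from less RNA per cell. S100a9, the target of the antibody, was at 0.370 to 0.859 FPKM in the Control mice, 63.1 to 267 FPKM with IgG Ab and 5.54 to 11.6 FPKM with anti-S100a9 Ab. The 6 epithelial markers summed to 1869 to 2963 FPKM over all 9 samples, so epithelium was present in each. Markers of mature colonocytes, of which 3 of 5 were lower in the IgG Ab group than in the Control group, summed to 832 to 1160.3 FPKM in the Control, 84.8 to 365 FPKM in the IgG Ab and 673 to 1069 FPKM in the anti-S100a9 Ab samples. Of 5 Paneth cell markers (Lyz1, Mmp7, Defa24, Ang4 and Itln1) 4 were higher with IgG Ab than in the Control. Their sums were 998 to 1825 FPKM against 78.9 to 187 FPKM, and 52.7 to 106 FPKM with anti-S100a9 Ab. The study also lists Mmp7 among its Wnt signaling genes, so these sums need not stand for Paneth cells alone. All 5 neutrophil markers, S100a9 among them, were higher with IgG Ab than in the Control, at sums of 127 to 535 FPKM against 3.54 to 3.97 FPKM, and the sums were 13.8 to 29.7 FPKM with anti-S100a9 Ab. Stromal markers set the IgG Ab samples apart from each other: the 5 smooth muscle markers summed to 212, 459 and 1656 FPKM in the IgG Ab samples, against 809, 1189 and 1288 FPKM in the Control and 1944, 1677 and 955 FPKM in the anti-S100a9 Ab samples. The 6 fibroblast markers, 4 of them higher with IgG Ab than in the Control, summed to 410.1, 1879.7 and 1267 FPKM with IgG Ab, 294 to 333 FPKM in the Control and 315 to 448 FPKM with anti-S100a9 Ab. Squamous epithelium, which anal tissue would add, had summed markers of 44.0, 6.72 and 29.7 FPKM with IgG Ab and of 0.899 to 3.31 FPKM in the other samples. Of its 5 markers 4 were tested. With IgG Ab 3 were higher than in the Control, and with anti-S100a9 Ab 3 were lower than with IgG Ab. Trp63, a regulator on this list, was at or near 0 in all 9 samples. The part of these cell types in the results that follow was not tested, and every result that moves with them carries that limit.

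Most of the members that rose in AOM/DSS + IgG Ab tissue encode secreted proteins, which also make up a large part of the list. The list was chosen with earlier results of these data known, which limits what its shares against all genes can show. Of the 44 tested members 8 were higher with IgG Ab than in the Control group (Inhbb, Fst, Bmp7, Bmp8b, Inhba, Bambi, Bmp1 and Tgfbr2), which is 18.2% against 8.18% of all genes tested, and 1 was lower (Bmp3), which is 2.27% against 3.01%. With anti-S100a9 Ab, 6 of these 8 were lower than with IgG Ab (Inhbb, Fst, Bmp7, Bmp8b, Bambi and Bmp1), 13.6% of the members against 14.4% of all genes, so falls were about as common among the members as elsewhere. Higher with anti-S100a9 Ab than with IgG Ab were 5 members (Chrdl1, Bmp3, Smad9, Acvr2a and Smad4), 11.4% against 6.72% of all genes. Between the anti-S100a9 Ab and the Control groups no member was called, and over all genes limma called 1 higher and 1 lower, 0.00655% in each direction. Both comparisons that involve the IgG Ab group share its 3 samples, so a gene that is high in them appears as a rise in one comparison and as a fall in the other, and the opposite directions are not separate findings.

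Under the thresholds the study used, p under 0.05 before adjustment together with a change of over 2-fold, 8 members were higher with IgG Ab than in the Control group (8.43% of all genes were) and 3 were lower, Bmp3, Bmp8a and Chrdl1 (5.19%). Gdf15 entered by these thresholds and Tgfbr2 left. For anti-S100a9 Ab against IgG Ab, 4 members were higher (Bmp3, Bmp8a, Chrdl1 and Smad9, background 7.64%) and the same 6 as above were lower (8.38%). For anti-S100a9 Ab against Control, 3 members were higher (Bmp8b, Chrdl1 and Inhba, background 2.28%) and 0 lower (0.864%). The median log2 fold change of the members was 0.48 for IgG Ab against Control (0.09 over all genes), -0.16 for anti-S100a9 Ab against IgG Ab (-0.06) and 0.33 for anti-S100a9 Ab against Control (0.04).

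**Figure D1:**
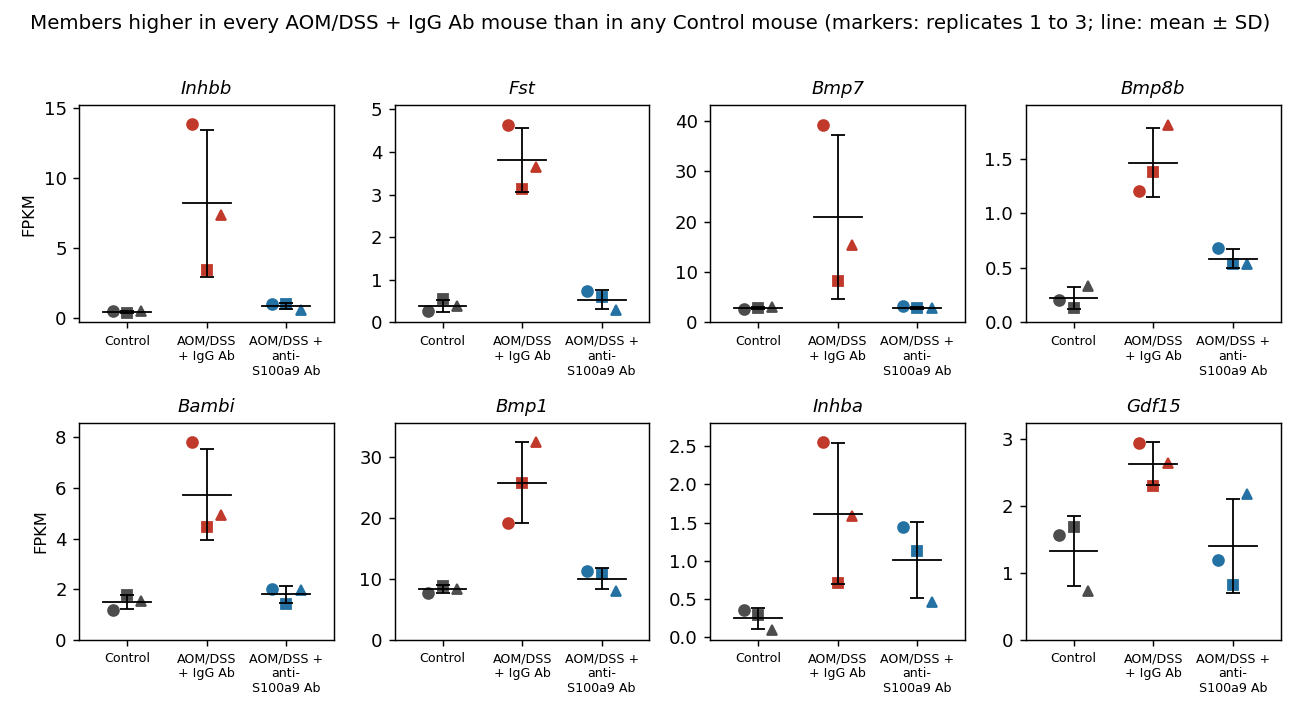
FPKM of 8 members in each mouse, by group (circle, square and triangle for replicates 1, 2 and 3, line and bar for the mean ± SD of 3 mice). In every panel the 3 AOM/DSS + IgG Ab mice lie above the 3 Control mice, and in all but the Inhba panel they also lie above the 3 AOM/DSS + anti-S100a9 Ab mice.

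The activin subunit Inhbb had the largest log2 fold change of the 44 tested members in both comparisons with the IgG Ab group. Inhbb encodes the beta B subunit, which pairs with itself or with other subunits to form activins and inhibins, and lies on chromosome 1 at 119415465 to 119422248 (GRCm38). It was at 0.513, 0.372 and 0.464 FPKM in the Control mice (0.450 ± 0.0715, SD, n = 3), 13.8, 3.42 and 7.40 FPKM in the IgG Ab mice (8.22 ± 5.26) and 0.981, 0.975 and 0.598 FPKM in the anti-S100a9 Ab mice (0.852 ± 0.219). The IgG Ab mice did not overlap with either of the other groups, and the anti-S100a9 Ab mice all lay above the Control mice. Inhbb rose in IgG Ab against Control (log2 fold change 3.71, SE 0.46, adjusted p = 0.00231) and fell in anti-S100a9 Ab against IgG Ab (-2.94, SE 0.46, adjusted p = 0.00765), while its difference between anti-S100a9 Ab and Control was not called (0.77, SE 0.46, adjusted p = 0.406). Inhba, the beta A subunit (chromosome 13, 16011851 to 16031621), was at 0.358, 0.296 and 0.0908 FPKM in the Control, 2.55, 0.714 and 1.59 FPKM with IgG Ab and 1.44, 1.13 and 0.459 FPKM with anti-S100a9 Ab. It rose with IgG Ab (2.24, SE 0.56, adjusted p = 0.0362), but the anti-S100a9 Ab mice overlapped with the IgG Ab mice and lay above all Control mice, and neither of those differences was called (-0.59, SE 0.56, adjusted p = 0.448, and 1.64, SE 0.56, adjusted p = 0.301). The rise of Inhba was lost in 7 of the 9 leave-one-out fits, all but those without IgG Ab replicate 2 and without anti-S100a9 Ab replicate 3, at adjusted p values of up to 0.0989 (without IgG Ab replicate 1). Inha, the alpha subunit that turns an activin into an inhibin, overlapped between all groups, at 0.434 to 1.69 FPKM over the 9 mice. Replicate 1 had the highest Inhbb and Inhba of the IgG Ab mice. It also had the lowest sum of mature colonocyte markers, 84.8 FPKM, and the highest sum of squamous markers, 44.0 FPKM.

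Fst encodes follistatin, the secreted protein that binds activins and keeps them from their receptors (chromosome 13, 114452290 to 114458951). Its values were 0.258, 0.540 and 0.374 FPKM in the Control mice (0.391 ± 0.142, SD, n = 3), 4.64, 3.14 and 3.65 FPKM with IgG Ab (3.81 ± 0.761) and 0.728, 0.581 and 0.282 FPKM with anti-S100a9 Ab (0.530 ± 0.227). The activin antagonist was thus high in the same mice as the activin subunit Inhbb, and the 3 IgG Ab mice differed less among themselves in Fst than in Inhbb. Fst rose with IgG Ab (3.02, SE 0.36, adjusted p = 0.00203) and fell with anti-S100a9 Ab against IgG Ab (-2.69, SE 0.36, adjusted p = 0.00466), and the anti-S100a9 Ab and Control values overlapped (0.33, SE 0.36, adjusted p = 0.651). For Inhbb and Fst both calls held in all 9 leave-one-out fits and in each other fit that was tried.

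Among the BMP and GDF ligands, 2 of 10 tested members rose with IgG Ab and 1 fell, against 8.18% and 3.01% of all genes tested. Bmp7, a ligand of the BMP type II and activin type II receptors (chromosome 2, 172868012 to 172940321), was at 2.71, 2.76 and 3.11 FPKM in the Control, 39.3, 8.18 and 15.4 FPKM with IgG Ab and 3.14, 2.78 and 2.77 FPKM with anti-S100a9 Ab. The anti-S100a9 Ab mice overlapped with the Control mice, and the IgG Ab mice spread widely among themselves. Bmp7 rose with IgG Ab against Control (2.54, SE 0.46, adjusted p = 0.0119) and fell with anti-S100a9 Ab against IgG Ab (-2.52, SE 0.46, adjusted p = 0.0123), a fall that just missed the threshold without anti-S100a9 Ab replicate 2 (adjusted p = 0.0514).
Bmp3, which differs from most BMPs in opposing BMP signaling (chromosome 5, 98854415 to 98884396), went the other way, at 4.77, 6.72 and 4.54 FPKM in the Control, 1.02, 1.23 and 2.95 FPKM with IgG Ab and 4.59, 5.66 and 3.39 FPKM with anti-S100a9 Ab. The IgG Ab mice lay below all others, and the other groups overlapped. Bmp3 fell with IgG Ab (-1.70, SE 0.38, adjusted p = 0.0263) and rose with anti-S100a9 Ab against IgG Ab (1.46, SE 0.38, adjusted p = 0.0310). Its fall was lost without Control replicate 1 or 2 or without IgG Ab replicate 1 or 2, and its rise without IgG Ab replicate 1 or 2 or without any of the anti-S100a9 Ab replicates, at adjusted p values of up to 0.0978 and 0.107. Mature colonocyte markers were low in the same 3 mice, as given above.

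Bmp8a and Bmp8b are neighboring, closely similar genes on chromosome 4, between which reads may be split, so their separate values are uncertain. Bmp8b (123105165 to 123132099) was at 0.206, 0.131 and 0.333 FPKM in the Control, 1.20, 1.38 and 1.81 FPKM with IgG Ab and 0.682, 0.533 and 0.533 FPKM with anti-S100a9 Ab, with no overlap between any of the groups. It rose with IgG Ab (2.30, SE 0.30, adjusted p = 0.00312) and fell with anti-S100a9 Ab against IgG Ab (-1.18, SE 0.30, adjusted p = 0.0285), the fall being lost without IgG Ab replicate 3 or any of the anti-S100a9 Ab replicates (adjusted p up to 0.0958). Bmp8a (123312645 to 123343252) was at 2.56, 2.45 and 1.07 FPKM in the Control, 0.575, 1.43 and 0.580 FPKM with IgG Ab and 1.75, 2.16 and 1.65 FPKM with anti-S100a9 Ab, and was not called in any comparison (-1.16, SE 0.42, adjusted p = 0.106 for IgG Ab against Control). The sum of both was 2.77, 2.58 and 1.40 FPKM in the Control, 1.77, 2.81 and 2.39 FPKM with IgG Ab and 2.44, 2.69 and 2.18 FPKM with anti-S100a9 Ab, so the summed values of the groups overlapped.

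Bmp4 and Bmp2, the most abundant BMP ligands in the Control mice, were not called. Bmp4, a ligand of the stroma beside the crypts, was at 22.8, 27.7 and 23.1 FPKM in the Control, 26.0, 21.0 and 17.3 FPKM with IgG Ab and 23.5, 26.0 and 20.4 FPKM with anti-S100a9 Ab. Bmp2, made toward the luminal surface, was at 24.0, 21.1 and 14.8 FPKM in the Control, 14.9, 15.1 and 12.7 FPKM with IgG Ab and 16.8, 18.2 and 23.1 FPKM with anti-S100a9 Ab. The groups overlapped for Bmp4 throughout, while for Bmp2 the anti-S100a9 Ab mice lay above the IgG Ab mice (0.43, SE 0.20, adjusted p = 0.148). Gdf15, a distant family member that rises with cell stress, was at 1.56, 1.68 and 0.725 FPKM in the Control, 2.94, 2.30 and 2.64 FPKM with IgG Ab and 1.20, 0.812 and 2.18 FPKM with anti-S100a9 Ab, with the IgG Ab mice above all others but no call (1.01, SE 0.40, adjusted p = 0.133 against Control). Bmp5, Bmp6 and Gdf10 were not called either, at 2.84 to 13.3 FPKM for Bmp5 and Bmp6, and at 0.500 to 9.36 FPKM for Gdf10. Both ends of the Gdf10 range were IgG Ab mice, replicates 1 and 2.

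None of the 3 TGF-beta ligands was called in any comparison. Tgfb1, the isoform of immune and stromal cells, was at 13.9, 8.58 and 18.0 FPKM in the Control, 15.8, 20.1 and 22.8 FPKM with IgG Ab and 18.2, 12.5 and 19.2 FPKM with anti-S100a9 Ab. These values overlapped between all 3 groups (log2 fold change 0.58, SE 0.29, adjusted p = 0.215 for IgG Ab against Control, and -0.24, SE 0.29, adjusted p = 0.551 for anti-S100a9 Ab against IgG Ab). Tgfb2 was at 1.13, 1.29 and 1.07 FPKM in the Control and 4.26, 1.65 and 1.89 FPKM with IgG Ab without overlap (0.97, SE 0.36, adjusted p = 0.114), and the anti-S100a9 Ab mice overlapped with both groups. Tgfb3 ranged from 2.65 to 8.34 FPKM, and its lowest and highest values were both in Control mice.

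Bmp1, despite its name, is a protease of the astacin family that cuts procollagen and the BMP antagonist chordin (chromosome 14, 70474558 to 70520234). It was at 7.67, 8.91 and 8.39 FPKM in the Control (8.32 ± 0.621, SD, n = 3), 19.2, 25.8 and 32.5 FPKM with IgG Ab (25.9 ± 6.61) and 11.4, 10.8 and 8.02 FPKM with anti-S100a9 Ab (10.1 ± 1.79). The IgG Ab mice lay above all others, and the Control and anti-S100a9 Ab mice overlapped. Bmp1 rose with IgG Ab (1.59, SE 0.21, adjusted p = 0.00332) and fell with anti-S100a9 Ab against IgG Ab (-1.34, SE 0.21, adjusted p = 0.00820), and both calls held in each leave-one-out fit. Bambi, the decoy receptor, was at 1.18, 1.76 and 1.52 FPKM in the Control (1.49 ± 0.291), 7.81, 4.47 and 4.93 FPKM with IgG Ab (5.74 ± 1.81) and 2.02, 1.41 and 1.96 FPKM with anti-S100a9 Ab (1.80 ± 0.332). The same pattern held as for Bmp1, with a rise (1.85, SE 0.28, adjusted p = 0.00533) and a fall (-1.60, SE 0.28, adjusted p = 0.0102) that held in each such fit. Fibroblast markers were also higher in IgG Ab tissue, at sums of 410, 1879.7 and 1267 FPKM in IgG Ab replicates 1, 2 and 3, an order that Bmp1 followed only in part, lowest in replicate 1 but highest in replicate 3. Their part in the rise of Bmp1 was not tested.

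**Figure D2:**
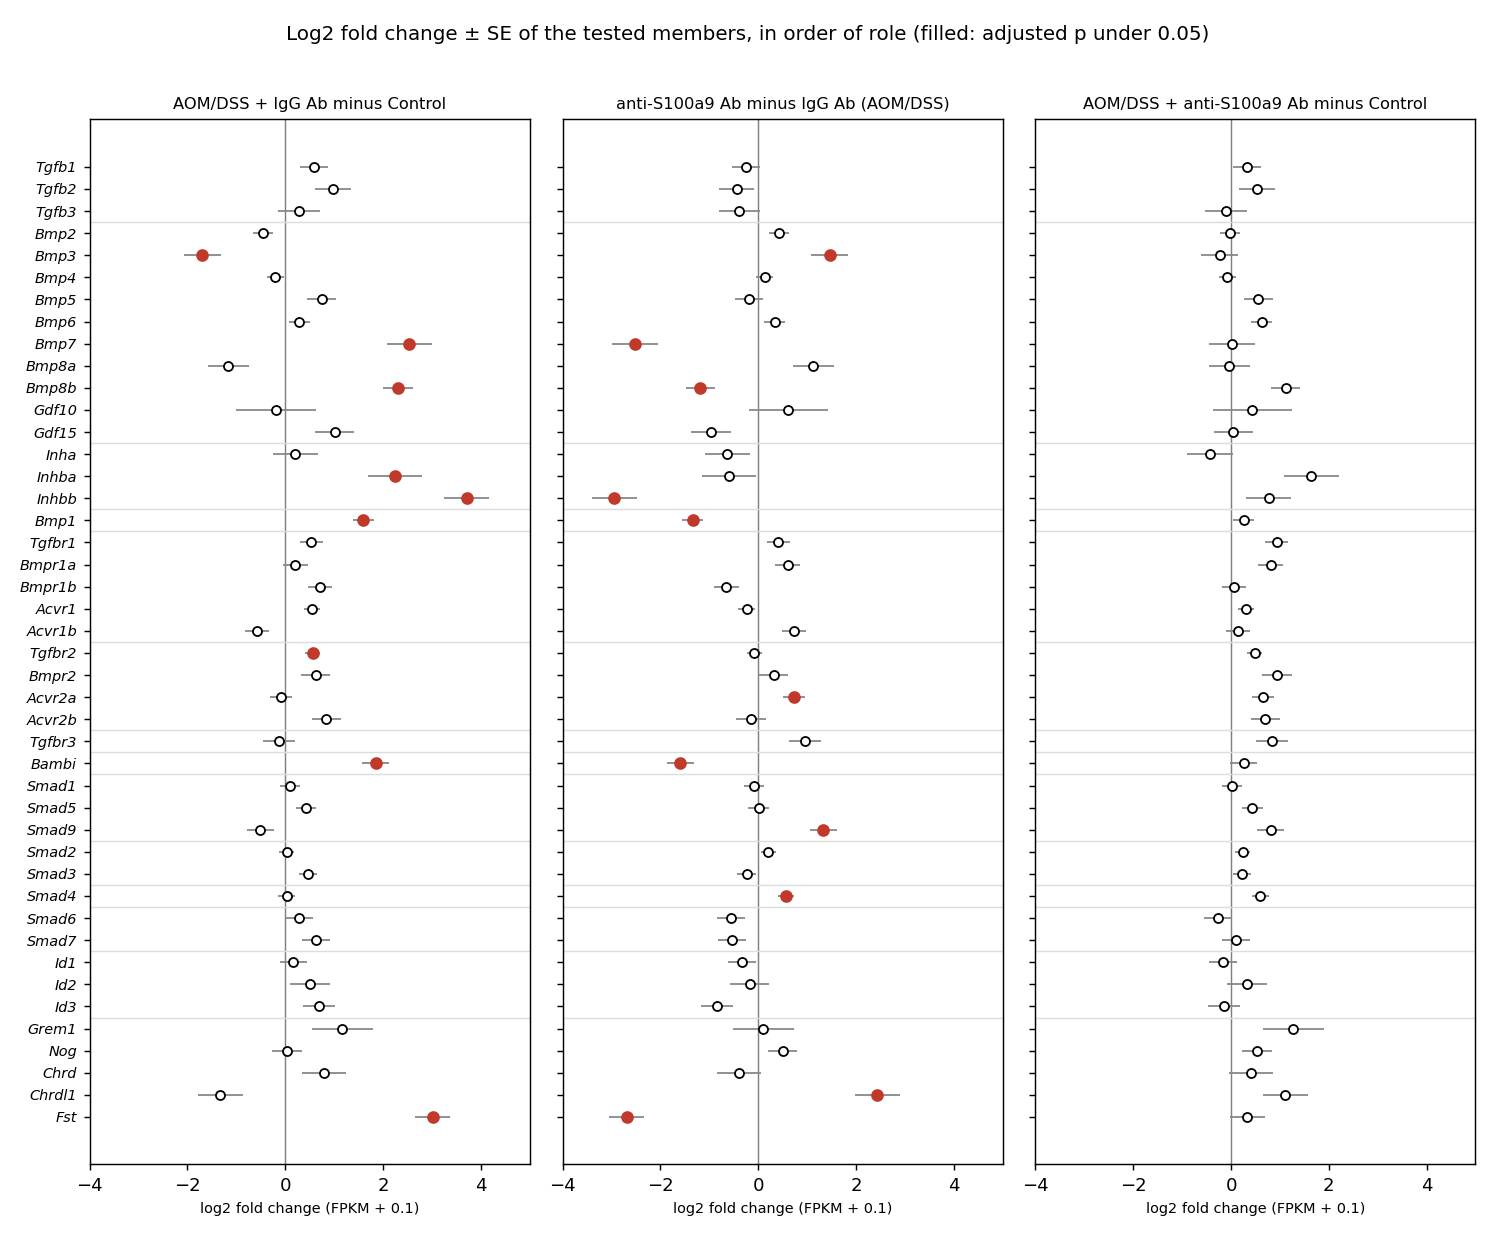
Log2 fold change (FPKM + 0.1) with its standard error for the 44 tested members in the order of their roles, in 3 panels for the 3 comparisons (filled points, adjusted p under 0.05). Filled points lie on both sides of 0 in the panels that involve the IgG Ab group, up to 3.71 for Inhbb and down to -2.94 for Inhbb, and there are none in the panel of anti-S100a9 Ab against Control, where most open points lie right of 0.

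Without overlap between samples, 14 of the 44 members were higher with IgG Ab than in the Control (20.7% of all genes were) and 2 lower, Bmp3 and Chrdl1 (10.2%). The corresponding numbers for anti-S100a9 Ab against IgG Ab were 12 higher (18.5%) and 9 lower (28.5%). For anti-S100a9 Ab against Control they were 21 higher (17.3%) and 0 lower (13.7%), although no member was called. At an unadjusted p under 0.05, 13 members were higher in that comparison (8.87% of all genes) and 0 were lower (7.1%). The 21 members higher in each anti-S100a9 Ab mouse than in any Control mouse were 8 of the 10 type I, type II and co-receptors (Tgfbr1, Bmpr1a, Acvr1, Tgfbr2, Bmpr2, Acvr2a, Acvr2b and Tgfbr3), the Smads Smad2, Smad4, Smad5 and Smad9, the antagonists Grem1, Nog, Chrd and Chrdl1, and the ligand genes Bmp5, Bmp6, Bmp8b, Inhba and Inhbb. None of the TGF-beta ligands, inhibitory Smads or Id genes was among them.

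No receptor was called between the anti-S100a9 Ab and the Control mice, although their values leaned one way. All 10 had positive log2 fold changes against Control, with a median of 0.68. When samples were scaled to equal sums, by the median of ratios or by quantiles, 10, 10 and 9 of them were positive. Of the tested members 35 of 44 were positive as deposited and 41 of 45 at equal sums. The median over all genes was 0.04 as deposited and 0.24 at equal sums, so part of the lean there was general. The adjusted p-values of all 10 receptors were 0.301 or higher, so these differences failed the correction. Tgfbr1, the type I receptor of TGF-beta, was at 9.58, 6.70 and 4.79 FPKM in the Control, 10.9, 9.88 and 8.70 FPKM with IgG Ab and 13.5, 11.9 and 13.7 FPKM with anti-S100a9 Ab. Every anti-S100a9 Ab mouse lay above every other mouse (0.94, SE 0.23, adjusted p = 0.301 against Control, unadjusted p = 0.00325). The BMP type I receptor Bmpr1a, whose germline loss causes juvenile polyps in humans, was at 12.0, 12.5 and 6.90 FPKM in the Control, 14.5, 12.1 and 9.12 FPKM with IgG Ab and 18.5, 18.2 and 16.7 FPKM with anti-S100a9 Ab (0.81, SE 0.25, adjusted p = 0.301). Tgfbr3, the co-receptor betaglycan, was at 6.38, 8.10 and 4.44, 3.42, 6.65 and 7.80 and 12.1, 12.1 and 9.08 FPKM in the 3 groups in the same order, again with the anti-S100a9 Ab mice above all others (0.83, SE 0.33, adjusted p = 0.301). Control replicate 3 held the lowest Control value of 8 of these 10 receptors, all except Bmpr1b and Acvr2b, and its smooth muscle sum was the highest of the Control mice.

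Called receptors were Tgfbr2 and Acvr2a. Tgfbr2, the type II receptor of TGF-beta that is often mutated in human colorectal cancer with microsatellite instability, was with Acvr1b the most abundant receptor of the list, at 31.5, 26.8 and 24.3 FPKM in the Control, 39.5, 36.2 and 46.1 FPKM with IgG Ab and 42.3, 34.0 and 39.2 FPKM with anti-S100a9 Ab. Both AOM/DSS groups lay above the Control group, and they overlapped with each other (-0.07, SE 0.15, adjusted p = 0.740). The rise with IgG Ab was small (0.56, SE 0.15, adjusted p = 0.0482) and was called in only 1 of the 9 fits with a sample left out, that without IgG Ab replicate 2, with adjusted p values of up to 0.141 in the others, and in 2 of the 10 other fits tried. Acvr2a, a type II receptor of activins and some BMPs, was at 5.37, 5.30 and 3.09 FPKM in the Control, 4.45, 4.37 and 3.74 FPKM with IgG Ab and 7.12, 6.73 and 7.30 FPKM with anti-S100a9 Ab, where it was higher than with IgG Ab (0.74, SE 0.23, adjusted p = 0.0474). With a sample left out, the fit without Control replicate 3 kept this call, and in the other 8 the adjusted p reached 0.127. Acvr1b, the activin type I receptor, was at 31.3, 34.7 and 20.4 FPKM in the Control, 16.6, 24.3 and 16.3 FPKM with IgG Ab and 33.0, 35.6 and 25.5 FPKM with anti-S100a9 Ab, and did not pass the test (-0.58, SE 0.24, adjusted p = 0.153 for IgG Ab against Control, 0.73, SE 0.24, adjusted p = 0.0629 for anti-S100a9 Ab against IgG Ab).

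**Figure D3:**
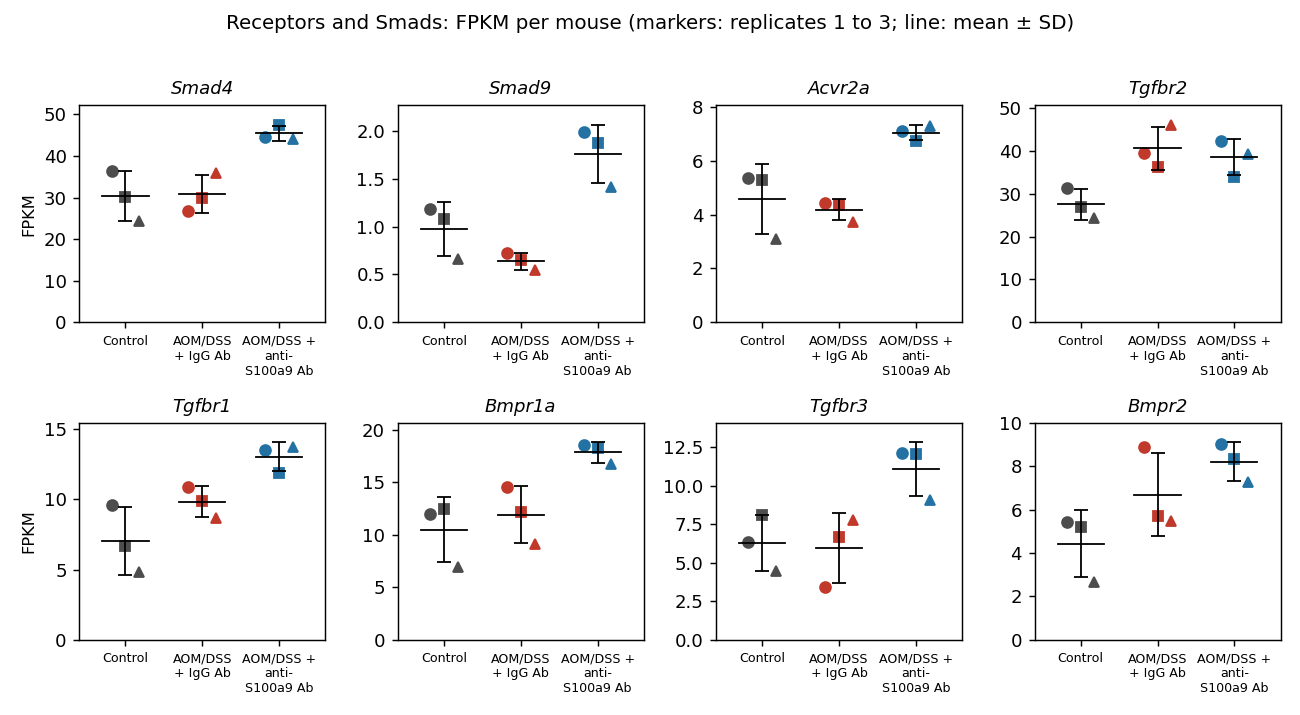
FPKM of 6 receptors and of Smad4 and Smad9 in each mouse, by group (circle, square and triangle for replicates 1, 2 and 3, line and bar for the mean ± SD of 3 mice). The 3 AOM/DSS + anti-S100a9 Ab mice lie above the 3 Control mice in every panel, and above the IgG Ab mice in all panels but those of Tgfbr2 and Bmpr2.

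Smad4, the partner shared by all branches, was at 36.4, 30.0 and 24.4 FPKM in the Control (30.3 ± 6.01, SD, n = 3), 26.7, 29.8 and 35.8 FPKM with IgG Ab (30.8 ± 4.62) and 44.7, 47.5 and 44.2 FPKM with anti-S100a9 Ab (45.4 ± 1.80). The Control and IgG Ab mice overlapped (0.03, SE 0.17, adjusted p = 0.919), and the anti-S100a9 Ab mice lay above both groups. Smad4 was higher with anti-S100a9 Ab than with IgG Ab (0.57, SE 0.17, adjusted p = 0.0453), a call that was lost in 7 of the 9 leave-one-out fits, all but those without Control replicate 1 or 3 (adjusted p up to 0.131), and the difference from the Control was not called (0.60, SE 0.17, adjusted p = 0.301). Smad9, the least abundant BMP Smad (chromosome 3, 54755582 to 54801257), was at 1.18, 1.08 and 0.660 FPKM in the Control, 0.719, 0.652 and 0.545 FPKM with IgG Ab and 1.99, 1.88 and 1.42 FPKM with anti-S100a9 Ab. Each anti-S100a9 Ab mouse exceeded every mouse of the other groups. It was higher with anti-S100a9 Ab than with IgG Ab (1.33, SE 0.28, adjusted p = 0.0171), except without anti-S100a9 Ab replicate 1 or 2 (adjusted p up to 0.0673).

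Smad2, a receptor Smad of TGF-beta and activin, was at 9.66, 9.69 and 8.77 FPKM in the Control, 11.1, 9.57 and 8.22 FPKM with IgG Ab and 10.1, 10.9 and 12.3 FPKM with anti-S100a9 Ab. Its largest log2 fold change was 0.24 (SE 0.15, adjusted p = 0.438), for anti-S100a9 Ab against Control. The RNA level of Smad2 says nothing of its phosphorylation, which was not measured in these files. Smad3 was at 11.3, 10.4 and 7.86 FPKM in the Control, 16.7, 12.1 and 12.1 FPKM with IgG Ab and 11.1, 12.5 and 10.6 FPKM with anti-S100a9 Ab, where the IgG Ab mice lay above the Control mice without a call (0.46, SE 0.19, adjusted p = 0.143). Smad1 and Smad5 were at 5.91 to 17.9 FPKM and were not called. Of the inhibitory Smads, Smad6 was at 10.8 to 29.0 FPKM and Smad7, a direct target of TGF-beta signaling, at 8.76 to 24.5 FPKM. The highest value of either was in IgG Ab replicate 1, and neither was called.

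Id1, Id2 and Id3 encode inhibitors of basic helix-loop-helix factors and are among the most direct BMP targets. Id1 was at 161, 185 and 239 FPKM in the Control, 274, 211 and 173 FPKM with IgG Ab and 125, 167 and 241 FPKM with anti-S100a9 Ab, with overlap between all groups (0.16, SE 0.28, adjusted p = 0.733 for IgG Ab against Control, -0.33, SE 0.28, adjusted p = 0.401 for anti-S100a9 Ab against IgG Ab). Id3 was highest in IgG Ab replicate 1 at 291 FPKM, against 79.3 to 141 FPKM in the other 8 mice, and was not called. Id2 ranged from 23.4 to 76.9 FPKM, and both ends of the range were IgG Ab mice. None of the 3 was called in any comparison.

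Of the BMP antagonists Chrdl1, Grem1, Chrd and Nog, Chrdl1 alone was called, in 1 comparison. Chrdl1, a chordin-like antagonist (chromosome X, 143285674 to 143394262), was at 3.78, 4.72 and 2.38 FPKM in the Control, 0.552, 2.05 and 1.99 FPKM with IgG Ab and 9.01, 7.52 and 6.62 FPKM with anti-S100a9 Ab. No groups overlapped, the IgG Ab mice were lowest and the anti-S100a9 Ab mice highest. Chrdl1 was higher with anti-S100a9 Ab than with IgG Ab (2.44, SE 0.46, adjusted p = 0.0131), although not when anti-S100a9 Ab replicate 1 or 2 was left out (adjusted p up to 0.0525), and its differences from Control were not called (-1.33, SE 0.46, adjusted p = 0.0953 for IgG Ab, and 1.11, SE 0.46, adjusted p = 0.303 for anti-S100a9 Ab). Grem1, a BMP antagonist of the muscle layer and of fibroblasts near the crypt base, was at 17.7, 12.1 and 12.6 FPKM in the Control, 18.2, 16.4 and 103 FPKM with IgG Ab and 48.5, 30.8 and 25.8 FPKM with anti-S100a9 Ab. A single IgG Ab mouse, replicate 3, had the highest value, the other 2 lay at or near the Control range, and all 3 anti-S100a9 Ab mice lay above all Control mice (1.27, SE 0.62, adjusted p = 0.341). IgG Ab replicate 3 also had the highest Chrd of all mice, 5.37 FPKM against 1.21 to 2.08 FPKM in the other 8, and the highest smooth muscle sum of its group. Nog was at 1.23 to 3.32 FPKM and was not called. Of the 5 smooth muscle markers 2 were higher with anti-S100a9 Ab than with IgG Ab. Chrdl1 was higher in that comparison too, whereas Grem1 was not called (0.11, SE 0.62, adjusted p = 0.913). The part of smooth muscle in the values of Grem1 and Chrdl1 was not tested.

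**Figure D4:**
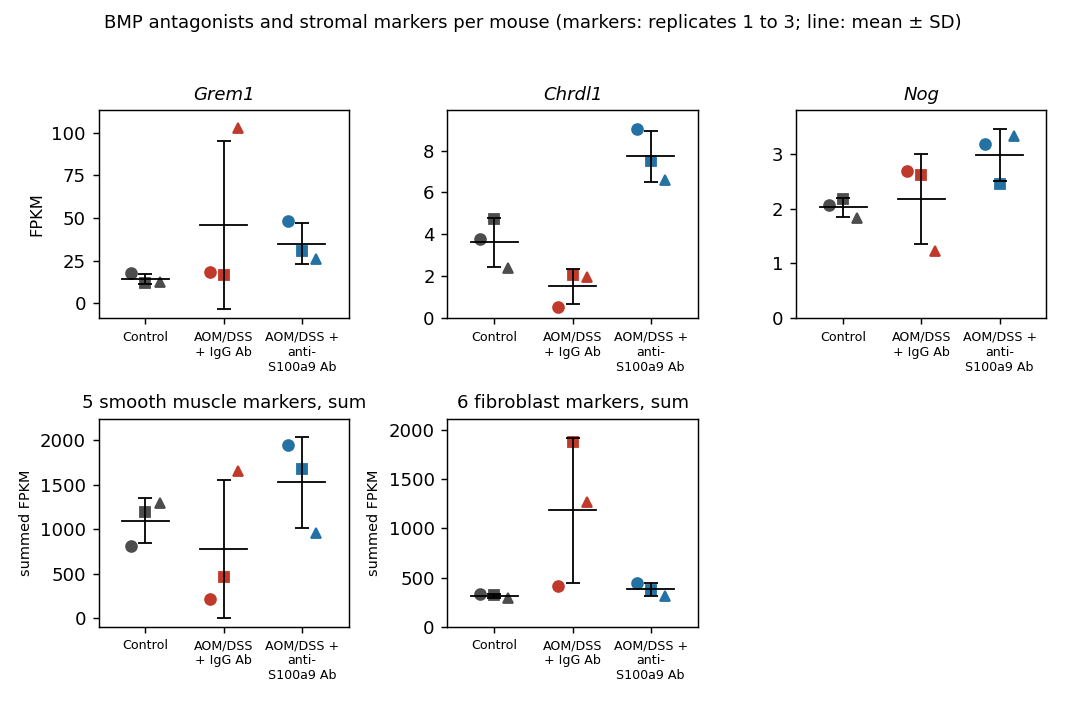
FPKM of the BMP antagonists Grem1, Chrdl1 and Nog and summed FPKM of 5 smooth muscle and 6 fibroblast markers in each mouse, by group (circle, square and triangle for replicates 1, 2 and 3, line and bar for the mean ± SD of 3 mice). IgG Ab replicate 3 stands far above its group in Grem1 and in the smooth muscle sum, while the 3 IgG Ab mice lie below all others in Chrdl1.

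Other genes of these pathways, 58 listed by function of which 45 were tested, were also called in part. With IgG Ab, 10 of the 45 (22.2%) were higher than in the Control and 4 (8.89%) lower, against 8.18% and 3.01% of all genes tested. The 58 genes were listed with earlier results of these data known, so their shares are not independent of that choice. Among the higher were genes that bind or free latent TGF-beta or process its precursors. Thbs1 was at 25.9 to 57.0 FPKM against 2.03 to 4.58 FPKM (3.28, SE 0.39, adjusted p = 0.00202). The others of this kind were the integrin subunit Itgb8 (2.36, SE 0.33, adjusted p = 0.00419), the convertase Furin (0.96, SE 0.14, adjusted p = 0.00462) and the latency binding protein Ltbp3 (0.80, SE 0.19, adjusted p = 0.0299). Of the 10 latency and activation genes tested 4 were called higher and 1, Ltbp4, lower (-0.68, SE 0.17, adjusted p = 0.0336), to be read against the same shares of all genes. The intracellular inhibitors Pmepa1, itself induced by TGF-beta, and Tgif2 were higher as well, Pmepa1 at 39.0 to 73.1 FPKM against 11.2 to 14.1 FPKM (2.11, SE 0.23, adjusted p = 0.00145). Also higher were the ligand Gdf11 (2.95, SE 0.59, adjusted p = 0.0170) and the extracellular modulators Bmper (2.64, SE 0.68, adjusted p = 0.0413) and Fstl1 (1.34, SE 0.34, adjusted p = 0.0391).
Id4 was lower with IgG Ab (-1.41, SE 0.27, adjusted p = 0.0140), and so was the type I receptor Acvr1c (-1.32, SE 0.36, adjusted p = 0.0482).

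With anti-S100a9 Ab against IgG Ab, 5 of the 45 other genes (11.1%) were higher and 9 (20%) lower, against 6.72% and 14.4% of all genes tested. Among the higher were Id4 (2.15, SE 0.27, adjusted p = 0.00389), Acvr1c (1.66, SE 0.36, adjusted p = 0.0188), the co-receptor Rgmb (1.10, SE 0.27, adjusted p = 0.0258) and Ltbp4 (0.95, SE 0.17, adjusted p = 0.0107). Lower were Pmepa1 (-1.73, SE 0.23, adjusted p = 0.00466), Tgif2 (-2.04, SE 0.35, adjusted p = 0.0104), Tgif1 (-1.39, SE 0.29, adjusted p = 0.0175), Thbs1 (-1.97, SE 0.39, adjusted p = 0.0146), Furin, Itgb8, Ltbp3, Gdf11 and Bmper, with the last 5 between -2.35 and -0.69. Against Control none of the 45 was called with anti-S100a9 Ab.

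Scaling bears on small differences. The median log2 fold change of all genes was 0.09, -0.06 and 0.04 in the 3 comparisons as deposited, and 0.18, 0.05 and 0.24 when samples were scaled to equal sums. Quantile normalization set it to -0.03, 0.01 and -0.01. Relative to all genes, the members' median stood 0.37 to 0.41 higher with IgG Ab than in the Control, and 0.28 to 0.30 higher with anti-S100a9 Ab than in the Control, in each of these scalings. Of the calls over all genes, 73.1% were higher with IgG Ab than in the Control as deposited and 60% after quantile normalization, and for anti-S100a9 Ab against IgG Ab the share was 31.9% as deposited, 46.5% scaled to equal sums and 44.9% after quantile normalization. Among the members these splits were 8 to 1 and 5 to 6 as deposited.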

How the data were processed

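RNA from the colorectal tissue of 9 mice was sequenced by the authors, and the files they deposited hold 1 decimal value per gene symbol and mouse. The unit is given neither in the files nor in the study's text. The values were taken as FPKM, since the submitters' processing notes name TopHat, Cufflinks, HTSeq, DESeq and GRCm38 (versions not given in the sources used here) and the values sum to 308377 to 408811 per sample. No counts were given, so the depth is unknown and precision rests on the spread between mice, with 3 per group. That spread was pooled over the groups and moderated toward a trend over all genes tested. Of 21544 rows, 46 repeated a symbol and were summed. Repeats concerned no member.

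From the deposited FPKM values, log2(FPKM + 0.1) was computed for genes at 0.1 FPKM or more in at least 3 samples. Groups, taken from the labels, were tested with limma 3.58.1 (R 4.3.3) (a model of 3 groups, empirical Bayes with an intensity trend, 8.87 degrees of freedom, two-sided) with Benjamini-Hochberg adjustment over the 15278 genes tested. Alternatives were the study's thresholds, fits of the groups compared only, a replicate block, other pseudocounts, filters and scalings, no trend, and leaving out each sample. The script was tested on simulated data. The labels call the samples biological replicates. No 2 files held the same values, and log2 values of samples correlated at 0.917 to 0.970 within and 0.839 to 0.972 between groups. Samples were treated as unpaired, as no clear pairing by replicate number was seen (see the closing section).

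The 45 members, the 58 other pathway genes, the marker lists and the motifs were chosen with earlier results of these data known. Values per mouse are given for members that were called or passed the study's thresholds in a comparison, and for Tgfb1, Tgfbr2, Smad4, Smad2, Smad3, Bmp4, Bmp2 and Id1. Those of Gdf5, Tgfb2, Grem1, Tgfbr1, Bmpr1a, Tgfbr3 and Acvr1b were added after their values were seen. Other pathway genes are named where called, and some of those counted are not reported here by name. Of the marker lists, endothelium summed to 27.1 to 30.0, 19.2 to 49.2 and 30.4 to 40.7 FPKM in the Control, IgG Ab and anti-S100a9 Ab samples, macrophages to 171 to 261, 161 to 276 and 189 to 218, T cells to 6.58 to 50.7, 6.53 to 25.3 and 13.8 to 33.3, B and plasma cells to 73.1 to 313, 25.7 to 170.1 and 134 to 201, adipocytes to 74.3 to 261, 9.70 to 45.1 and 19.4 to 36.3, and enteric glia to 35.1 to 52.4, 21.4 to 29.3 and 43.9 to 57.7. Gene positions are from GENCODE M21 on GRCm38, and start-site sequences from RefSeq on GRCm38.p6. Tables and figures were made with Python 3.11.15, pandas 2.3.3, numpy 2.4.6 and matplotlib 3.10.9.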

Additional observations from a re-analysis of the deposited data

How the results depend on the processing

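Of 20 calls of named members, 10 held in every fit that tested them, and Inhbb, Fst, Bmp1 and Bambi account for 8 of these, with the rises of Bmp7 and Bmp8b with IgG Ab. Over all named calls, 178 of 197 fits besides those that left out a sample and 132 of 180 fits that left one out kept the call. The cause of a lost call was not tested. The number of members higher with IgG Ab than in the Control (8) became 5 among genes with a mean of at least 1 FPKM. That filter tests fewer genes, and over all genes the number higher went from 1250 of 15278 to 988 of 12552. The number of members lower (1) became 3 by the study's thresholds, 0 fitting those 2 groups only and 2 with the replicate block. Over all genes the number lower was 460, and it became 793, 109 and 494. The number of members higher with anti-S100a9 Ab than with IgG Ab (5) became 3 without an intensity trend. Over all genes it went from 1026 to 1001. The number of members higher with anti-S100a9 Ab than in the Control (0) became 3 under the study's thresholds. Over all genes it went from 1 to 349. Leaving out 1 sample at a time gave 6 to 8, 0 to 3, 0 to 8, 4 to 6, 0 to 0 and 0 to 0 members for higher and lower in the 3 comparisons in turn. Over all genes the same fits gave 511 to 1383, 80 to 784, 88 to 1446, 428 to 2668, 0 to 4 and 0 to 1. The count of 5 members higher with anti-S100a9 Ab than with IgG Ab was 0 without anti-S100a9 Ab replicate 1 or 2. It was 2 without anti-S100a9 Ab replicate 3 or IgG Ab replicate 1. It was 3 without IgG Ab replicate 3 or Control replicate 2, and 8 without Control replicate 3. Calls over all genes moved as well, from 1026 to 164, 88 and 262 without anti-S100a9 Ab replicates 1, 2 and 3. They were 419 and 502 without IgG Ab replicates 1 and 3, and 758 and 1446 without Control replicates 2 and 3. The count of 1 member lower with IgG Ab was 0 without Control replicate 1 or 2 or IgG Ab replicate 1, and 3 without Control replicate 3. Over all genes the number lower went from 460 to 149, 80 and 282 in the first 3 of these fits, and to 466 in the last. Without the low filter Gdf5 was lower with anti-S100a9 Ab than with IgG Ab (-1.49, SE 0.41, adjusted p = 0.0419).

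No clear pairing of the samples by replicate number was seen. Same-numbered samples correlated in their deviations from the group means at -0.187 to 0.249, 5 of 9 pairs over 0.1. In 9 of 18 checks a sample correlated best with its own number. Each check was among the 3 samples of another group, of which 1 has that number. So few samples cannot exclude a weak pairing. With the replicate block, Tgfbr2 (adjusted p = 0.0516) and Smad4 (0.0681) were no longer called. The member counts were 7, 2, 6, 6, 0 and 0, and those over all genes 1209, 494, 1135, 2226, 1 and 1.

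Among the named members, signs turned only in values near 0 that were not called. For IgG Ab against Control, Smad2 was at -0.0783 and -0.10 and Smad4 at -0.0747 and -0.0602 under median-of-ratios scaling and quantile normalization, and leaving out a sample gave -0.0767 to 0.13 for Smad2, -0.11 to 0.17 for Smad4 and -0.0108 to 0.32 for Id1. For anti-S100a9 Ab against IgG Ab, Tgfbr2 was at 0.0394 scaled to equal sums, 0.00474 under median-of-ratios scaling and 0.12 under quantile normalization, and without 1 sample it was -0.15 to 0.0206 and Bmp4 -0.0112 to 0.28. For anti-S100a9 Ab against Control, scaling to equal sums gave 0.17 for Bmp2, 0.13 for Bmp4 and 0.0342 for Id1, quantile normalization gave 0.11 for Id1, and fits without 1 sample gave -0.23 to 0.12 for Bmp2, -0.16 to 0.0192 for Bmp4 and -0.41 to 0.0610 for Id1.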

Other observations

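FPKM values were also summed over members of a role. The 3 TGF-beta ligands summed to 13.8 to 27.4, 24.3 to 29.8 and 18.2 to 25.9 FPKM and the 11 BMP and GDF ligands to 56.8 to 76.3, 69.1 to 104 and 68.8 to 73.9 FPKM in the Control, IgG Ab and anti-S100a9 Ab mice, with overlap between all groups. The 3 activin or inhibin subunits summed to 1.35, 1.25 and 1.84 FPKM in the Control, 16.9, 4.77 and 10.7 FPKM with IgG Ab and 2.97, 2.54 and 1.60 FPKM with anti-S100a9 Ab. The 5 type I receptors summed to 58.4, 59.9 and 36.4 FPKM in the Control, 50.3, 53.5 and 41.9 FPKM with IgG Ab and 71.9, 72.1 and 62.3 FPKM with anti-S100a9 Ab, so the anti-S100a9 Ab mice were highest, while the 4 type II receptors summed to 30.5 to 43.0, 47.0 to 56.4 and 50.0 to 59.2 FPKM. The 3 Id genes summed to 293, 326 and 387 FPKM in the Control, 642, 412 and 317 FPKM with IgG Ab and 265, 279.7 and 408 FPKM with anti-S100a9 Ab, where IgG Ab replicate 1 held the highest sum. The members varied somewhat more between mice than other genes did, with a median SD of log2(FPKM + 0.1) of 0.32 in the Control, 0.38 with IgG Ab and 0.23 with anti-S100a9 Ab, against 0.29, 0.34 and 0.18 over all genes tested.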
